A study of Rattus norvegicus with 12 samples.

Results

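Transcripts of ultraconserved regions were followed in rat vein grafts through 962 array features, 1 for each strand of 481 regions. The members were all gene features of the array whose systematic name starts with "uc.", where the number names the region and the trailing sign names the strand. They make up 962 of the 24684 distinct gene probes on the array, and each was printed as a single spot. The study hybridised vein RNA from male rats to 12 single-colour arrays. The day 0 group of 3 arrays holds veins of rats that had no operation, and the other 3 groups of 3 hold vein recovered 7, 14 or 28 days after the external jugular vein was placed as a bypass graft of the carotid artery. The labels give no strain, age, allele or drug. They do not say whether vessels were pooled, so a p-value measures the spread between these arrays, some of which may be technical. Replicate numbers are names in deposit order and pair nothing.

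Ultraconserved regions are stretches of genome that are identical, base for base, between human, mouse and rat. Those that overlap exons tend to lie in genes for splicing factors and other RNA-binding proteins, where some form part of exons that send the transcript to decay, and those outside exons tend to cluster around regulators of development, where many act as enhancers. RNA can be made from either strand, so a plus and a minus transcript of one region are separate molecules. Regions were numbered along the human chromosomes when the catalogue was made, so close numbers mark regions that are near each other in that order. Sequences and positions of the regions were not analysed here, and the files used here pair no region with a host gene, so genes named beside a region come from general knowledge of the human regions. The labels do not state whether the labelling kept the strand of the RNA. Plus and minus below therefore name the array feature, and whether a feature reports the transcript of its own strand alone was not tested.

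All values below are levels on a log2 scale, the processed signal of a spot minus the 75th percentile of its own array, so 0 is the 75th percentile and a difference of 1 is a doubling. Levels of different features cannot be compared with each other, only the same feature between arrays. A change was called at an adjusted p under 0.05 (limma over all 21063 tested probes, Benjamini-Hochberg), and "rose" or "fell" is used only of called changes. All 3 graft days were compared with the same day 0 arrays, so their calls are not independent of each other.

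The 75th percentile of intensity ran from 494 to 991 over the arrays, and no ultraconserved spot was saturated. Uneven spots were concentrated on a pair of arrays, day 0 replicate 3 (460 non-uniform spots) and day 7 replicate 3 (393), where the others had 2 to 11. These uneven arrays hold 24 of the 26 ultraconserved spots left out as outliers. Arrays also shared slides, as read from scan times. Slide 1 holds day 14 replicates 2 and 3 and day 28 replicates 1 and 2, slide 2 holds all of day 7 and day 14 replicate 1, slide 3 holds day 0 replicates 1 and 2 and day 28 replicate 3, and slide 4 holds day 0 replicate 3 alone. No slide holds day 0 with day 7 or day 14, so for these comparisons slide and day are largely tied. All 4 smooth muscle markers on the array were well above background on all 12 arrays. So were all 5 endothelial and all 6 T cell markers, so detection alone does not identify the vessel.

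Signals of ultraconserved transcripts were dim. Between 43.1% and 58.0% of the 962 features were well above background on a given array, against 71.9% to 82.6% of all gene spots. In all, 300 members (31.2%, against 66.6% of all gene probes) were above background on all 12 arrays, 276 on 3 to 11, 141 on 1 or 2, and 245 (25.5%, against 9.67%) on none. A probe was tested when it was above background on at least 3 arrays, which left 576 members, 59.9%, where 85.3% of all gene probes passed. By strand, 290 of 481 plus features and 286 of 481 minus features passed. For 199 regions both strands passed, for 91 the plus strand alone, for 87 the minus strand alone, and for 104 neither.

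**Figure D1:**
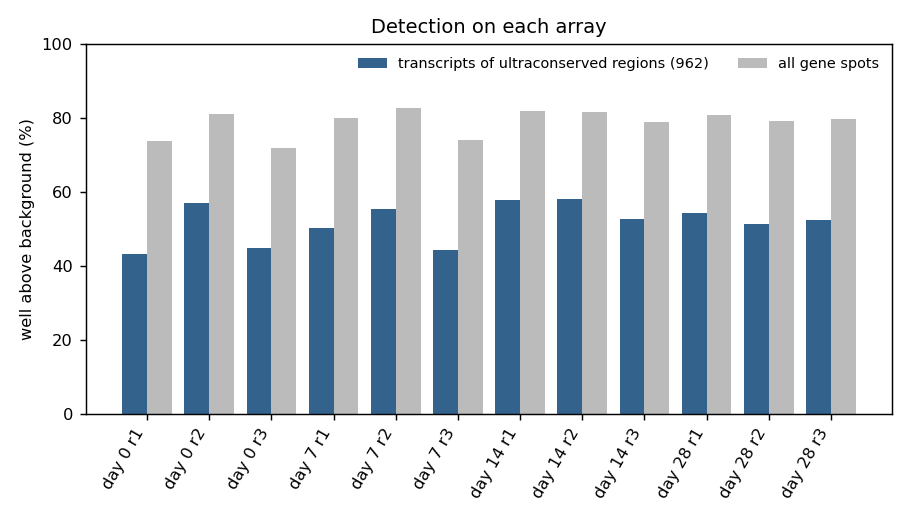
Share of features well above background (vertical axis, %) on each of the 12 arrays (r is the replicate) for the 962 ultraconserved features and for all gene spots. The ultraconserved share lies between 43.1% and 58.0% and is below the share of all gene spots on every array.

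Detection varied between arrays of the same day as much as between days. The number above background on all 3 arrays of a day was 339 at day 0, 384 at day 7, 476 at day 14 and 446 at day 28. The array with the fewest was day 0 replicate 1 with 415 members, close to day 7 replicate 3 with 426 and day 0 replicate 3 with 431, while day 0 replicate 2 had 548. The day 28 arrays had 523, 493 and 504, all below day 0 replicate 2, so the count over 3 arrays follows the arrays of a day with the fewest members above background. Within day 0 these were not the arrays of lowest intensity, since replicate 2 had the lowest 75th percentile (494). All gene spots moved alike, with 73.6%, 81.2% and 71.9% above background at day 0 and 80.9%, 79.1% and 79.7% at day 28.

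At day 7, 44 members rose and 78 fell. Together these are 122 of 576 members (21.2%), where 33.1% of all tested probes were called, 17.7% higher and 15.4% lower. At day 14, 74 rose and 63 fell, or 137 members (23.8%) beside 37.5% of all probes, 20.1% higher and 17.4% lower. At day 28, 43 rose and 117 fell, or 160 members (27.8%) beside 33.9% of all probes, 17.4% higher and 16.5% lower. With the filter of at least 3 arrays, the share of members called was below the background share at every day, and calls to lower values outnumbered those to higher values at days 7 and 28. Without day 0 replicate 2 the balance at day 7 turned, to 52 higher and 46 lower. Over the 3 graft days together, the F test called 171 members (29.7%) beside 40.5% of all probes. Among the 300 members above background on all 12 arrays, a filter added after the data were seen, 22 rose and 55 fell at day 7, 39 and 53 at day 14, and 28 and 89 at day 28. Called either way were 25.7%, 30.7% and 39.0% of these members, beside 36.2%, 42.0% and 37.7% of all probes under the same filter, so at day 28 the members' share was then slightly above the background.

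**Figure D2:**
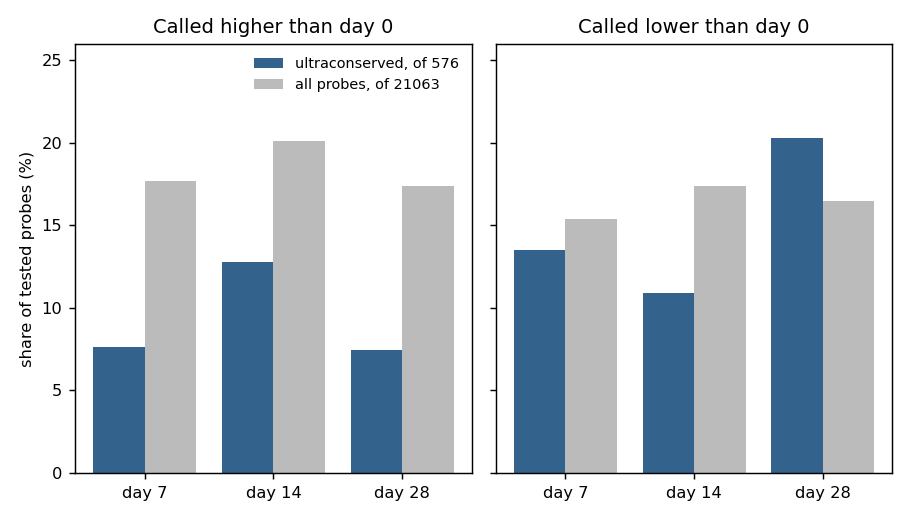
Share of tested probes (vertical axis, %) called higher (left) or lower (right) than day 0 on each graft day, for the 576 tested ultraconserved features and for all 21063 tested probes. Members called higher make up 7.47% to 12.8% against 17.4% to 20.1% of all probes, and at day 28 members called lower make up 20.3% against 16.5%.

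The median change of the tested members was -0.22 at day 7, -0.11 at day 14 and -0.35 at day 28, while the median of all tested probes stayed between -0.03 and 0.02. Before scaling, the members' medians were 0.12, 0.01 and 0.04, and those of all probes 0.31, 0.14 and 0.40. The members' lower medians are thus relative to an array whose 75th percentile was higher in grafts by 0.34, 0.12 and 0.39. With another background correction (normexp, with 50 added to every signal) the balance at day 7 turned, to 15 members higher and 2 lower with a median of 0.69. Under normexp the median of all tested probes at day 7 was also above 0, at 0.44, with 1879 called higher and 1221 lower. The normexp counts of members became 12 and 6 at day 14 and 6 and 17 at day 28. Called either way under normexp were 3.0%, 3.1% and 4.0% of members at days 7, 14 and 28. Of all tested probes, 14.7%, 16.8% and 12.3% were called. The added 50 exceeds the median ultraconserved signal of every array (9.36 to 12.7), and its part in these shifts was not tested. Quantile normalization gave 78 higher and 79 lower at day 14, and the deposited table of values 68 and 84, so the small surplus of higher members at that day depends on the scaling. Of all tested probes, 4577 were called higher and 3563 lower at day 14 with quantile normalization, and 4397 and 3696 with the deposited table. On slide 3, the only slide with day 0 and day 28, the median difference between day 28 replicate 3 and the mean of day 0 replicates 1 and 2 was -0.30 over the tested members and -0.04 over all tested probes. With the slide as a fixed block, limma called no member at day 7 (41 at an unadjusted p under 0.05), 16 at day 14 and 34 at day 28. These are 0%, 2.78% and 5.90% of members, beside 0.26%, 4.91% and 6.47% of all tested probes, so calls were lost over the whole array. The change kept its sign under that block in 120 of 122, 136 of 137 and 160 of 160 of the members called. These members were picked by their calls on the same arrays, so the kept signs are no independent check.

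Levels of marker genes of several cell types differed between the groups at the same time. Macrophage genes rose in 5 of 6, 6 of 6 and 5 of 6 cases at days 7, 14 and 28, and their summed level ran from 3.59 to 5.61 at day 0, 7.02 to 8.35 at day 7, 7.92 to 8.04 at day 14 and 6.88 to 7.20 at day 28. T cell genes rose in 5 of 6, 6 of 6 and 2 of 6 cases, with summed levels of 1.14 to 3.15, 3.02 to 3.54, 3.69 to 3.85 and 2.47 to 2.89. Smooth muscle genes fell in 4 of 4 cases at every day, from 9.38 to 10.02 at day 0 to 6.55 to 7.71, 6.74 to 7.26 and 7.53 to 7.80. Fat cell genes fell in 4, 5 and 4 of 5 cases, from 5.89 to 6.17 at day 0 to 3.58 to 3.67, 3.34 to 4.25 and 3.84 to 4.39. Endothelial genes fell in 3, 3 and 2 of 5 cases, with summed levels of 5.41 to 5.75 at day 0 and 2.45 to 3.23, 3.4 to 3.63 and 3.87 to 4.82 after it, and 1 of the 5 rose at day 28. Skeletal muscle genes rose in 0, 1 and 4 of 5 cases, with summed levels of 3.4 to 3.92, 3.47 to 4.38, 3.78 to 4.70 and 4.36 to 8.20. Of the 6 nerve and Schwann cell genes, 2 rose at day 7, 1 fell at day 14 and 2 rose at day 28, and their summed levels overlapped between all days, at 1.85 to 3.27, 1.99 to 2.97, 2.17 to 3.07 and 2.23 to 3.61. In bulk vessel RNA, fewer cells of a type and less RNA per cell cannot be told apart, and the part of these shifts in the members' changes was not tested.

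The largest changes to higher values of any graft day were at day 14. The level of uc.447+ was -5.99, -4.97 and -4.51 on the day 0 arrays, -5.18, -5.74 and -4.04 at day 7, -0.07, 0.33 and -0.49 at day 14, and -3.93, -4.99 and -2.94 at day 28. The day 14 arrays lie far above all others, and days 0, 7 and 28 overlap. The change from day 0 was 5.08 ± 0.59 (SE) at day 14 (adjusted p = 0.000132), beside 0.17 at day 7 and 1.20 at day 28, neither of which was called. Against the other graft days, uc.447+ at day 14 was higher than at day 7 by 4.91, and at day 28 it was lower than at day 14 by a change of -3.88.

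The plus strand of region 314 followed the same course. Its levels were -4.43, -4.37 and -3.92 at day 0, -4.32, -4.89 and -3.48 at day 7, 0.48, 0.87 and 0.04 at day 14, and -3.20, -4.32 and -2.35 at day 28. Again the day 14 arrays stand alone, with a change of 4.70 ± 0.49 from day 0 (adjusted p = 7.27e-05), 4.70 from day 7, and -3.75 from day 14 to day 28 for uc.314+.

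The level of uc.243+ was -0.23, 0.13 and 1.27 at day 0, 1.45, 0.57 and 2.94 at day 7, 5.16, 5.46 and 4.47 at day 14, and 1.59, 0.68 and 2.63 at day 28. Its change at day 14 was 4.64 ± 0.66 (adjusted p = 0.000457), and it too differed from day 7 (3.38) and fell by day 28 (-3.39). For uc.473- the levels were -3.62, -3.10 and -2.59 at day 0, -2.97, -4.04 and -1.58 at day 7, 0.67, 1.13 and 0.12 at day 14, and -2.71, -3.44 and -1.71 at day 28. It rose by 3.74 ± 0.62 at day 14 (adjusted p = 0.00106), stood 3.50 above day 7, and changed by -3.26 from day 14 to day 28.

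Also highest at day 14 were uc.132- and uc.309+. The day 14 levels of uc.132- were 0.51, 0.78 and -0.31, against -4.13 to -1.65 on the other 9 arrays, and the change from day 0 was 3.18 ± 0.54 (adjusted p = 0.00128). The other member, uc.309+, was above background on 4 arrays, the 3 of day 14 at -3.63, -2.91 and -3.91 and 1 more, while the rest lay between -7.87 and -6.41. It was at least 8.12-fold higher at day 14 than at day 0 (adjusted p = 2.12e-05) and at least 9.12-fold higher than at day 7, measured against the dimmest signal that counts as above background.

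For all 6 of these transcripts, replicate 2 was the highest and replicate 3 the lowest of the day 14 arrays, and replicate 2 was the lowest of the day 28 arrays. The features lie on different regions, and why their levels share an order over the arrays was not tested. The calls of uc.132-, uc.243+, uc.314+ and uc.447+ at day 14 held under each of the 14 alternative settings in which they were tested. This was so for none of the other members called at day 14.

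**Figure D3:**
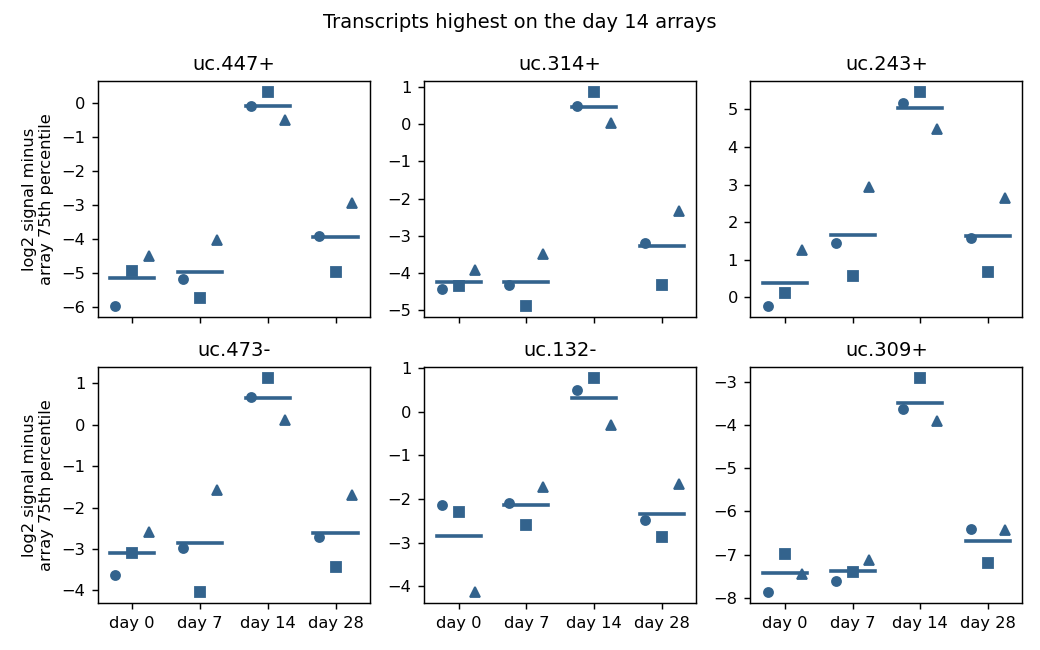
Level of 6 ultraconserved transcripts (vertical axis, log2 signal minus the array's 75th percentile, each panel on its own scale) on the 12 arrays, grouped by day. Circles, squares and triangles are replicates 1, 2 and 3 and lines are group means; in each panel the 3 day 14 arrays lie above the other 9.

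Over all tested members, 35 (6.08%) had their 3 day 14 arrays above the other 9, beside 6.79% of all tested probes, a share near the background. In 1 member (0.174%, beside 3.97% of all probes) the day 14 arrays were the lowest. At day 28 the arrays were the lowest in 47 members (8.16%, beside 4.62%) and the highest in 13 (2.26%, beside 3.02%). Between graft days, 18 members (3.12%, beside 3.26% of all probes) differed between days 14 and 7, 12 of them higher at day 14. Between days 28 and 14, 16 members (2.78%, beside 4.48%) differed, 14 of them lower at day 28. Between days 28 and 7, 5 members (0.868%, beside 1.78%) differed. These counts move with single arrays, to between 5 and 28 for days 14 and 7 and between 5 and 44 for days 28 and 14 when 1 array is left out.

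Other members rose at day 7. The features uc.477+ and uc.479+, close in catalogue order, held 2 of the 3 largest rises at day 7. For uc.479+ the levels were -4.97, -4.36 and -5.15 at day 0, -1.24, -0.90 and -3.34 at day 7, -2.03, -2.06 and -1.99 at day 14, and -2.49, -2.29 and -2.76 at day 28. All graft arrays lie above all day 0 arrays, with rises of 3.00 ± 0.52, 2.80 ± 0.52 and 2.31 ± 0.52 (adjusted p = 0.0018, 0.00215 and 0.00745). The level of uc.477+, by contrast, was -6.09, -5.56 and -7.97 at day 0, -2.60, -2.35 and -3.87 at day 7, -5.89, -5.73 and -6.25 at day 14, and -5.00, -4.54 and -6.15 at day 28. It rose by 3.60 ± 0.64 at day 7 (adjusted p = 0.002), while the later groups overlap day 0 and were not called.

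Of the remaining rises at day 7, uc.291- changed by 3.59 ± 0.81, uc.54+ by 2.49 ± 0.49, uc.159+ by 2.29 ± 0.55, uc.70+ by 1.94 ± 0.48 and uc.185+ by 1.91 ± 0.49. For each of these 5, picked as large called rises, the day 7 arrays did not overlap day 0. The same held for 27.6% of all tested members and 39.8% of all tested probes. The features uc.69+ and uc.70+ are neighbours in the catalogue and both rose at days 7 and 14, the first by at least 3.82-fold and at least 4.97-fold, the second by 1.94 and by 2.35 ± 0.48 on the log2 scale. A further neighbouring pair, uc.185+ and uc.186+, was among the largest rises at day 28. Such neighbours were picked out from the named members, and how often neighbouring members are called together was not counted.

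A rise with little spread between arrays was that of uc.186+. Its levels were -5.55, -5.30 and -5.40 at day 0, -4.43, -4.35 and -4.71 at day 7, -4.08, -4.09 and -3.97 at day 14, and -2.12, -1.98 and -2.41 at day 28. The 4 days form 4 bands without overlap. The changes from day 0 were 0.92, 1.37 and 3.25 ± 0.17 (adjusted p = 0.00282, 0.000224 and 3.04e-06), and day 28 exceeded day 7 by 2.32. With the normexp background correction the day 28 change was 1.32 and was no longer called (adjusted p = 0.168).

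Rises of similar steadiness were seen for uc.456+, uc.193- and uc.475+. The level of uc.456+ was -1.36, -1.43 and -2.00 at day 0, 0.01, 0.13 and -0.72 at day 7, 0.24, 0.15 and 0.45 at day 14, and 0.52, 0.55 and 0.47 at day 28, a rise of 1.40, 1.88 and 2.11 ± 0.25. For uc.193- the rise was 1.45, 1.71 and 1.90 ± 0.22, with day 0 arrays from -3.03 to -2.55 and graft arrays from -1.69 to -0.73. The region uc.475 lies in the human gene for OGT, the enzyme that attaches N-acetylglucosamine to intracellular proteins. Chosen after its values were seen, uc.475+ had levels of 0.07, 0.34 and 0.35 at day 0, 1.28, 1.47 and 1.23 at day 7, 1.46, 1.61 and 1.61 at day 14, and 1.76, 2.00 and 1.72 at day 28. Its rises of 1.07, 1.30 and 1.58 were called at each day (adjusted p = 0.00079, 0.00019 and 0.00013).

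The Ogt probe of the same arrays was not called at any day. Its changes were -0.39, -0.65 and -0.01 ± 0.25 (adjusted p = 0.247, 0.061 and 0.97), and its arrays overlapped between day 0 and days 7 and 28. Other rises at day 28 were 2.40 ± 0.56 for uc.309-, 2.37 ± 0.49 for uc.185+, 1.98 ± 0.49 for uc.54+ and 1.81 ± 0.48 for uc.161+. The changes at day 28 of uc.49-, uc.193-, uc.203+, uc.378-, uc.432+, uc.456+, uc.475+ and uc.483- passed under every alternative setting in which each was tested, the only 8 of 160 that did. With outlier spots left out on day 0 replicate 3 and day 7 replicate 3, uc.432+ was not tested in all 14 settings.

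Among the falls, uc.378- was large at every day. Its level was 1.47, 3.03 and 3.21 at day 0, -1.74, -2.90 and -1.71 at day 7, -2.02, -0.28 and -2.03 at day 14, and -2.97, -2.90 and -2.05 at day 28. The graft arrays all lie below day 0. The changes were -4.69, -4.01 and -5.21 ± 0.60 (adjusted p = 0.000311, 0.000595 and 0.000244).

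A smaller but tighter fall was that of uc.3-, from -2.52, -2.37 and -2.15 at day 0 to -5.26, -5.15 and -5.72 at day 7, -4.65, -4.22 and -4.44 at day 14, and -4.41, -4.39 and -4.32 at day 28. It fell by 3.03 ± 0.20 at day 7 (adjusted p = 8.05e-06) and by 2.09 and 2.03 later, and day 28 stood 1.00 above day 7. The opposite strand, uc.3+, changed by -2.88 ± 0.84 at day 7 (adjusted p = 0.0241), a call that was lost without the arrays with many non-uniform spots (-1.46, adjusted p = 0.124). Its catalogue neighbour uc.2+ fell by 2.35 ± 0.65 at day 14 and by 3.47 ± 0.65 at day 28. At day 7, uc.136- was at least 5.84-fold lower than at day 0, and it was 1.62 ± 0.30 lower at day 28 on the log2 scale.

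Several of the largest falls rest on day 0 arrays that differ widely among themselves. The level of uc.247+ was -3.58, 3.87 and 6.52 at day 0, against -6.37, -6.80 and -6.17 at day 28, so the change of -8.72 ± 2.18 (adjusted p = 0.0121) is set against a day 0 group that is itself 10.1 wide. Its day 7 and day 14 arrays overlap day 0. For uc.310- the day 0 levels were 1.26, 2.48 and 6.81 and those at day 28 were -0.93, -0.71 and -1.22. Its change of -4.47 ± 1.51 (adjusted p = 0.0434) became -2.83 (adjusted p = 0.13) without day 0 replicate 3 and -2.83 (adjusted p = 0.00127) without both arrays with many non-uniform spots.

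Day 0 replicate 3 was also the highest of day 0 for uc.251+, uc.419+ and uc.77+. For uc.251+ the day 0 levels were -0.96, 1.11 and 2.69 and those at day 28 were -4.45, -4.47 and -4.27, a change of -5.34 ± 0.84 (adjusted p = 0.00167). Its day 7 replicate 3 was left out as an outlier spot and would have been 0.53, and the change of -4.17 at day 7 became -2.92 (adjusted p = 0.0703) when outlier spots were kept. The corresponding values for uc.419+ were -4.25 ± 1.00 at day 28, and -3.71 at day 7, which became -2.64 (adjusted p = 0.109) with its outlier spot. The changes at day 28 without both uneven arrays were -4.47 for uc.251+, -2.94 for uc.419+, -2.78 for uc.77+ (from -4.39), -4.52 for uc.335+ (from -5.01) and -6.59 for uc.247+, and all 5 were still called.

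Both strands of region 369 had large falls, uc.369+ by 3.24 ± 0.47, 2.72 and 3.51 ± 0.43 at days 7, 14 and 28, with 1 outlier spot each at day 0 and day 7 left out, and uc.369- by 3.71 ± 0.99 at day 28. The latter became -2.93 (adjusted p = 0.052) without day 0 replicate 3. Further falls were those of uc.31+, by 2.77, 2.51 and 3.03 ± 0.71, and of uc.377-, the catalogue neighbour of uc.378-, by 2.18 ± 0.76 at day 14 and 2.79 ± 0.76 at day 28. The call of uc.377- at day 14 (adjusted p = 0.0447) was lost without day 0 replicate 3, at -1.49 (adjusted p = 0.14).

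Separate time courses were seen for uc.253+, uc.432+ and uc.226+. The level of uc.253+ was -4.09, -3.47 and -1.74 at day 0 and -1.65, -1.71 and -1.04 at day 7, and then lay between -4.59 and -4.20 on all day 14 and day 28 arrays. It rose by 1.63 ± 0.48 at day 7 (adjusted p = 0.0257) and was 2.95 lower at day 28 than at day 7. For uc.432+, with day 0 replicate 3 and day 7 replicate 3 left out as outliers, the levels were -0.94 and -0.44 at day 0, -1.23 and -1.57 at day 7, -2.43, -2.33 and -3.17 at day 14, and -2.91, -2.90 and -3.29 at day 28, a fall of 1.95 at day 14 and of 2.34 ± 0.31 at day 28. By day 28, uc.226+ was at least 4.10-fold lower than at day 0 and at least 2.22-fold lower than at day 7.

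The strands of a region were compared by how the difference between the plus and the minus level moved from day 0, in the 199 regions with both strands tested. This strand difference changed in 25 regions at day 7 (12.6%), 52 at day 14 (26.1%) and 45 at day 28 (22.6%). The plus strand moved up relative to the minus strand in 12, 25 and 23 of these and down in 13, 27 and 22. Among the 65 regions whose strands were both above background on all 12 arrays, 10, 20 and 21 were among those called. With the slide as a fixed block, limma called 0, 6 and 9 regions (17, 35 and 54 at an unadjusted p under 0.05). Under that block the strand change kept its sign in 25 of 25, 51 of 52 and 45 of 45 of the regions called. The same arrays made those calls, so the kept signs are no independent check. Slide and day are largely tied at days 7 and 14, and slide 3 alone holds days 0 and 28. The part of the slides in these calls therefore cannot be fully told apart from that of the day. The count at day 14 was 18 without day 14 replicate 3 and 27 without day 14 replicate 1. Between graft days, the strand difference changed in 10 regions from day 7 to day 14 and in 8 from day 14 to day 28, while limma called none from day 7 to day 28 (31 at an unadjusted p under 0.05).

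Counted by the calls of each strand, both strands changed the same way in 9, 9 and 15 regions at days 7, 14 and 28, and in opposite directions in 3, 3 and 5. A single strand was called in 63, 76 and 73 regions, and neither in 124, 111 and 106. A call on one strand only does not show that the strands differ, which is what the test of the strand difference addresses.

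**Figure D4:**
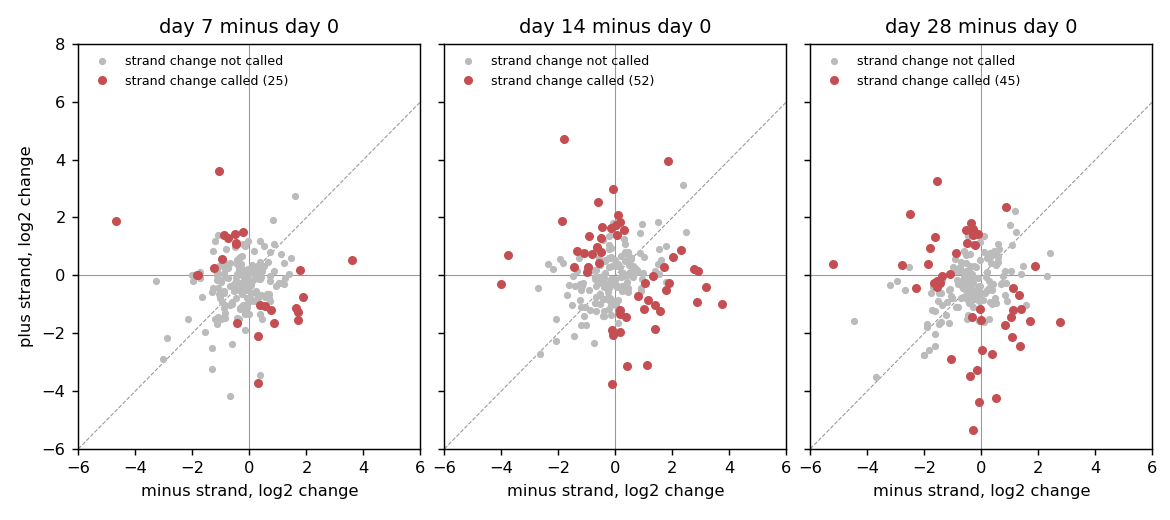
Change from day 0 of the plus strand (vertical axis, log2) against that of the minus strand (horizontal axis, log2) for the 199 regions with both strands tested, 1 panel per graft day. Red points are the 25, 52 and 45 regions whose strand difference changed; they lie away from the dashed line of equal change, on both sides.

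Region 378 had the largest strand change at day 7. While the minus strand fell by 4.69, the plus strand went from -7.12, -6.48 and -5.36 at day 0 to -4.41, -4.14 and -4.81 at day 7, a rise of 1.86 ± 0.43, and then to levels from -7.26 to -5.65 at days 14 and 28 that overlap day 0. The strand difference of uc.378 moved by 6.55 ± 0.53 at day 7 (adjusted p = 1.33e-05), 3.71 at day 14 and 5.60 at day 28. With the slide as a fixed block, the values of uc.378 were 5.20 (adjusted p = 0.197), 3.05 (adjusted p = 0.186) and 5.44 (adjusted p = 0.00853). In region 314 the opposite moves came at day 14. There uc.314+ rose by 4.70 as above, and uc.314- fell by 1.82, from -3.55, -2.50 and -2.91 at day 0 to -5.00, -4.37 and -5.05. The strand difference of uc.314 moved by 6.52 ± 0.45 at day 14 (adjusted p = 2.53e-06), and by 1.82 and 2.75 at days 7 and 28. The fixed slide block gave 7.62 for uc.314 at day 14 (adjusted p = 0.00218) and ended the call at day 7 (2.71, adjusted p = 0.409).

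Region 420 is the bright case of opposite change, with both strands above background on all 12 arrays. The plus strand went from 2.54, 3.36 and 2.67 at day 0 to 1.07, 0.77 and 1.19 at day 14, and the minus strand from 2.48, 3.24 and 1.95 to 3.94, 3.69 and 4.20. On neither strand do these groups overlap. At day 14, uc.420+ changed by -1.85 ± 0.23 and uc.420- by 1.38 ± 0.31, and the strand difference of uc.420 by -3.23 ± 0.29 (adjusted p = 2.55e-05), which passed under all 14 alternatives. It was -2.51 at day 7 and -2.54 at day 28, and the call at day 7 was lost with the slide as a fixed block (-2.30, adjusted p = 0.293).

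In region 456 the strands were called in opposite directions at day 14 and day 28. As uc.456+ rose, uc.456- went from 2.18, 3.36 and 3.99 at day 0 to 1.60, 1.17 and 3.48 at day 7, 1.41, 1.80 and 0.71 at day 14, and 0.60, 0.78 and 0.67 at day 28. The minus strand changed by -1.09, -1.87 and -2.50 ± 0.60, called at the last 2 days, and the strand difference of uc.456 by 2.50 (adjusted p = 0.0657), 3.75 (adjusted p = 0.00945) and 4.61 ± 0.81 (adjusted p = 0.00174). With the slide as a fixed block the last 2 were 3.17 (adjusted p = 0.316) and 3.97 (adjusted p = 0.0812) for uc.456.

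The other regions with opposite calls were uc.477 at day 7, uc.304 at days 7 and 28, and uc.108 and uc.212 at day 28. In uc.477 the minus strand fell by 1.06 ± 0.33 while the plus strand rose by 3.60, and the strand difference moved by 4.66 ± 0.87. In uc.304 the plus strand changed by -1.62 ± 0.36 at day 28 and the minus strand, which was below background at day 0, was at least 2.28-fold higher. In uc.108 the plus strand changed by -1.59 ± 0.48, and the minus strand was at least 1.06-fold higher, a bound close to no change. In uc.212, measured on all arrays, the plus strand changed by -1.43 ± 0.34 and the minus strand by 1.04 ± 0.28, and the strand difference by -2.47 ± 0.35 (adjusted p = 0.000721). None of these strand changes was called with the slide as a fixed block: it gave 1.59 for uc.477 at day 7 (adjusted p = 0.808), -2.95 and -4.25 for uc.304 at days 7 and 28 (adjusted p = 0.703 and 0.0623), and -3.04 for uc.108 and -1.76 for uc.212 at day 28 (adjusted p = 0.0506 for each).

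In the remaining large strand changes a single strand was called. In uc.186 the plus strand rose by 3.25 at day 28 while the minus strand changed by -1.57 ± 0.59 (adjusted p = 0.0623), a strand change of 4.82 ± 0.63. In uc.473 the minus strand peaked at day 14 and the plus strand changed by -0.98 ± 0.55, a strand change of -4.72 ± 0.58. The values at day 28 were -5.05 ± 1.03 for uc.251 and -4.77 ± 0.98 for uc.419, where uc.251- and uc.419- changed by -0.29 and 0.52 without a call. In uc.310 the strand difference moved by 4.45 ± 1.1 at day 14 (adjusted p = 0.0173), though neither strand was called there. In uc.475 the minus strand changed by -0.47, -0.49 and -0.52 without a call, and the strand difference by 1.55, 1.80 and 2.10 ± 0.31, called at each day. The strand calls of uc.475 were lost at each day under normexp (0.47, 1.55 and 1.94, adjusted p = 0.721, 0.151 and 0.0707) and with the slide as a fixed block (1.58, 1.71 and 1.97, adjusted p = 0.601, 0.217 and 0.0506). Under that block uc.186 kept its call at day 28 (3.98, adjusted p = 0.0156), while uc.473 (-4.58, adjusted p = 0.0942), uc.251 (-4.74, adjusted p = 0.0506), uc.419 (-2.59, adjusted p = 0.122) and uc.310 (4.61, adjusted p = 0.201) lost theirs.

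**Figure D5:**
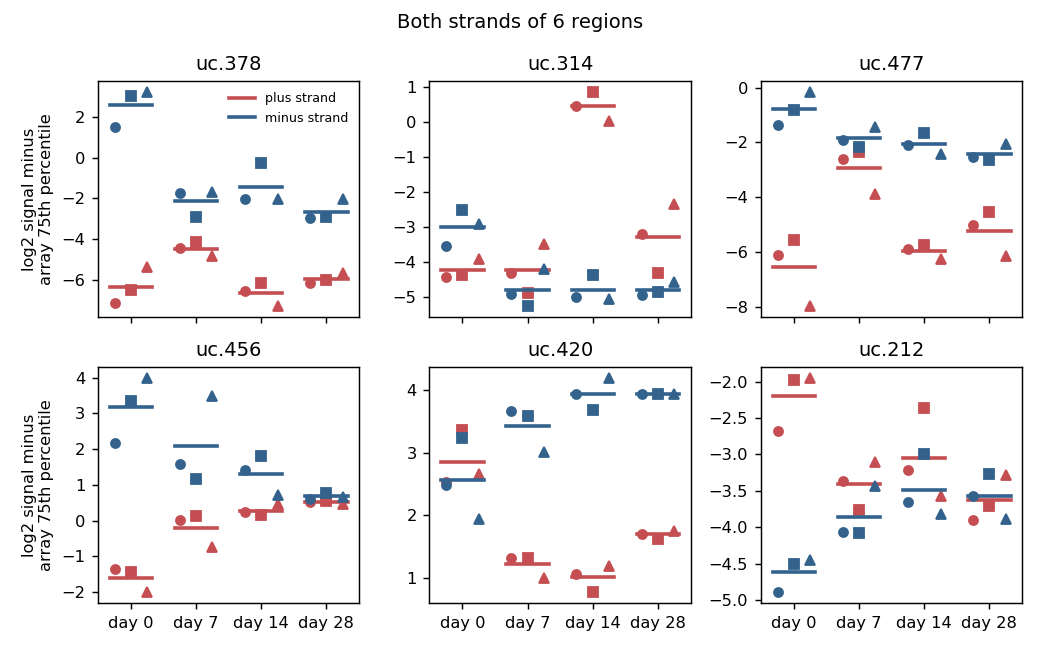
Levels of the plus (red) and minus (blue) strand of 6 regions on the 12 arrays (vertical axis, log2 signal minus the array's 75th percentile, each panel on its own scale), grouped by day, with circles, squares and triangles for replicates 1, 2 and 3 and lines for group means. The strands are different probes, so their heights cannot be compared with each other, only their courses: in each region the strands were called in opposite directions on at least 1 graft day.

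The region uc.338, known from work on other tissues, overlaps the human gene for PCBP2, a poly(C)-binding protein that acts on RNA stability and translation. The level of uc.338+ was -2.33, -2.49 and -3.65 at day 0, and the groups overlap at each graft day except day 7, where the arrays were -3.68, -3.97 and -4.06 and the change of -1.08 was not called (adjusted p = 0.088). The Pcbp2 probe changed by 0.42, 0.19 and 0.31 ± 0.22, none of them called. The steadiest members were uc.154+, with all 12 arrays between 1.01 and 1.53, uc.376+, between -2.99 and -2.36, and uc.144-, between 1.83 and 2.43.

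Genes of the kinds that hold or neighbour ultraconserved regions were read from the same arrays. Of 21 genes for splicing and RNA-binding proteins with exonic ultraconserved regions, 20 were on the array, all above background on all 12 arrays. Of these 20, 2 rose and 0 fell at day 7, 1 rose and 1 fell at day 14, and 2 rose and 1 fell at day 28, with median changes of 0.00, -0.04 and 0.18. Of all tested probes, 33.1%, 37.5% and 33.9% were called either way on these days. The RNA-binding protein gene Tia1 rose by 1.05 ± 0.16 at day 14, from -2.58, -2.20 and -2.34 to -1.29, -1.43 and -1.24. Srsf3, which encodes a splicing factor of the SR family, changed by -0.55 ± 0.15 at day 14 (adjusted p = 0.016).

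Developmental regulators stand beside many non-exonic regions. Of 30 such genes 21 were on the array and 20 were tested. Of the 20, 0 rose and 11 fell at day 7, 0 rose and 11 fell at day 14, and 1 rose and 7 fell at day 28, with median changes of -0.81, -1.02 and -0.53. Among all tested probes, 17.7%, 20.1% and 17.4% were called higher on these days and 15.4%, 17.4% and 16.5% lower. Nr2f2, a nuclear receptor that specifies vein identity, went from 1.86, 2.34 and 2.55 at day 0 to -0.69, -0.54 and -0.77 at day 14, a change of -2.92 ± 0.26 (adjusted p = 3.3e-05), and none of its graft arrays reached the day 0 levels. Changes at day 14 of the transcription factor genes were -2.16 ± 0.54 for Sox6, -2.09 ± 0.36 for Zfp503 and -1.94 ± 0.18 for Nfib. Which ultraconserved feature lies beside which of these genes was not analysed here.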

How the data were processed

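Each array carries 1 dye (Cy3). Images were read with Agilent Feature Extraction (version 11.0.1.1 in the submitters' processing notes). Per the labels, RNA was labelled along whole transcripts with oligo(dT) and random primers after removal of ribosomal RNA, and strand handling is not stated. Per the file headers, the deposited intensity used here is the processed signal, already corrected for background. Spots flagged as outliers (7348 gene spots over the 12 arrays, 26 of them ultraconserved) and 1417 control spots per array were left out. Values were log2 transformed, scaled by each array's 75th percentile and averaged per probe. The fit (limma 3.58.1, R 4.3.3) took probes above background on at least 3 arrays, with 4 day means and 1 shared spread (8 residual degrees of freedom), and adjusted over all tested probes by the Benjamini-Hochberg method. Scripts were tested on simulated data. A probe not above background on any array of a day has only a bound there: its fold is taken against the higher of its own signal and the lowest signal of a probe above background on each array.

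The deposited table of log2 values (24529 probes, all 962 members) was an alternative: the authors' values correlate best with their own arrays, their column medians lie between 7.149 and 7.153, and the normalization behind them is not given in the sources used here. Normexp used the median signals, since the scanner files used here have no mean signal column. It added 50 to every corrected signal, and the part of this constant in the calls lost under normexp was not tested. Of the gene probes, 14294 carry 1 symbol and 10390 none.

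The members, lists and named transcripts were chosen with earlier results of these data known. Named were, per graft day, the 8 largest called rises and 8 largest called falls (bounded ones ranked by the bound), the 5 largest called differences per pair of graft days, the 10 largest called strand differences, all regions with opposite calls, the 3 steadiest members, and per gene list the 4 largest called at day 14. Gene lists came from textbook knowledge, with the brightest probe of a gene. A list's summed level is the log2 of its summed linear values. Precision is limited by 3 arrays per group.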

Additional observations from a re-analysis of the deposited data

Results flagged for a closer look

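Several members differed between graft days by a direct test of that difference (limma, adjusted over all 21063 probes). The change from day 0 at day 14 exceeded that at day 7 by 4.91 for uc.447+, 4.70 for uc.314+, 3.50 for uc.473-, 3.38 for uc.243+ and a fitted 3.89 for uc.309+, which was not above background at day 7. The change at day 28 minus that at day 14 was -3.88 for uc.447+, -3.75 for uc.314+, -3.39 for uc.243+, -3.26 for uc.473- and -3.19 for uc.309+. The change at day 28 minus that at day 7 was -2.95 for uc.253+, 2.32 for uc.186+, -1.63 for uc.432+, a fitted -2.39 for uc.226+, which was not above background at day 28, and 1.00 for uc.3-.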

How the results depend on the processing

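Counts are of members called, in the order day 7, 14 and 28 against day 0. Main counts were 44, 74 and 43 higher, 78, 63 and 117 lower, and 25, 52 and 45 strand pairs, with 18, 16 and 5 for days 14 against 7, 28 against 14 and 28 against 7, and 171 in the F test. Normexp gave 15, 12 and 6 higher, 2, 6 and 17 lower, 8, 14 and 18 pairs, then 1, 2 and 1, and 25. The slide as a fixed block gave 0, 15 and 13 higher, 0, 1 and 21 lower, 0, 6 and 9 pairs (17 pairs at an unadjusted p under 0.05 at day 7), then 1, 7 and 0 (9 at an unadjusted p under 0.05), and 23. The slide as a random block moved 2 counts by over 1.5 times, to 45 lower at day 7 and 3 between days 28 and 7. Fits with only the arrays compared gave 14 higher and 20 lower at day 7, 76 lower at day 28, 1 and 23 pairs at days 7 and 14, and 131 between days 28 and 14. Leaving out both uneven arrays gave 182 lower at day 28, 41 pairs at day 7, then 35, 101 and 22. Counts of all probes grew as well, to 5230 of 21063 lower at day 28. Between graft days, the members' shares without these arrays were 6.08%, 17.5% and 3.82%, beside 11.5%, 22.8% and 4.43% of all probes. Members above background on all 12 arrays, fewer by construction, gave 22, 39 and 28 higher, 27 and 26 pairs at days 14 and 28, then 8, 10 and 2, and 111. The causes of the other shifts were not tested. The other settings (quantile normalization, the percentile over bright probes, the filter per day, no filter, the deposited table, outliers kept, the median of spots, an intensity trend) kept every count within 1.5 times.

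Leaving out 1 array gave 32 to 52, 56 to 80 and 30 to 55 higher, 46 to 98, 34 to 97 and 68 to 142 lower, 13 to 43, 18 to 56 and 28 to 58 pairs, 5 to 28, 5 to 44 and 2 to 13 between graft days, and 124 to 196 in the F test. Lower counts moved by over 1.5 times without day 0 replicate 2 (46, then below the 52 higher), day 7 replicate 1 (51) or replicate 2 (47) at day 7, without day 0 replicate 1 (97), day 14 replicate 1 (35) or replicate 3 (34) at day 14, and without day 28 replicate 1 (69) or replicate 2 (68) at day 28. Pairs did so without day 0 replicate 1 (43) or day 7 replicate 2 (13) at day 7, without day 14 replicate 1 (27) or replicate 3 (18) at day 14, and without day 28 replicate 1 (28) at day 28. Of the called members, the sign turned under normexp in 47 of 122 at day 7, 2 of 137 at day 14 and 13 of 160 at day 28. No paired analysis was possible because the labels give all arrays the same replicate number. Array quality weights were not run, since their estimate did not converge. Dim signals limit what can be seen: 386 of the 962 members were not tested.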
